A study of Mus musculus with 2 samples.

Results

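The genes described here encode the nuclear subunits of respiratory complexes II to V and their electron carrier cytochrome c. They were taken by gene symbol from the array annotation: Sdha to Sdhd for complex II, Cyc1 and the Uqcr genes for complex III, Cycs for cytochrome c, the Cox4 to Cox8 subunit genes for complex IV and the Atp5 genes for complex V. This gave 50 of 19321 named genes, measured by 53 spots: 4 genes of complex II, 10 of complex III, Cycs alone, 18 of complex IV and 17 of complex V. Of the 50 genes, 49 were above background on both arrays, and Cox8c, a testis form, was above it on neither (spot medians 36.7 and 37.7, limits 37.4 and 38.5). Uqcrh-ps1 is a pseudogene that carries a Uqcr symbol. Its spot may share signal with Uqcrh, so both values are uncertain.

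RNA of the gastrocnemius, a calf muscle, was compared between 2 female mice aged 10 weeks. The depleted mouse had the genotype Pdgfra-CreER:R26-DTA, in which tamoxifen lets Cre act where the Pdgfra promoter is active and turn on diphtheria toxin A, which kills the cell. The control was a littermate labelled wild type:R26-DTA, without the Cre. Both received tamoxifen on 5 days in a row, starting at 9 weeks of age, and the muscle was taken 2 days after the final dose. The depleted muscle is thus a whole tissue a few days after loss of PDGFRa-positive mesenchymal progenitors, and the study asked which genes differ in it. Each group held 1 array. The spread between animals is therefore unknown, no p-value is given, and animal, array and genotype cannot be told apart. In whole muscle, fewer cells of a type and less RNA per cell cannot be told apart either.

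The respiratory chain sits in the inner mitochondrial membrane. Complex II, succinate dehydrogenase, feeds electrons from the citrate cycle into ubiquinone, complex III passes them on to cytochrome c, and complex IV hands them to oxygen. The proton gradient that complexes III and IV help to build drives complex V, the ATP synthase. Skeletal muscle is among the tissues richest in these complexes, and it uses muscle-type forms of some complex IV subunits in place of the forms found in most tissues.

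By the median per complex, cytochrome c and then complex II stood lowest on the depleted array, and a small set of complex IV and V genes stood highest. Cycs was 2.06-fold lower, Cyc1 of complex III 1.79-fold lower, and the muscle-type subunit Cox7a1 of complex IV 1.66-fold lower. Cox6a2, Cox7a2l and Atp5g2 were 1.37-, 1.32- and 1.27-fold higher. Ratios are depleted over control on a log2 scale after quantile normalization, unless another scale is named. Over the 49 genes the median was -0.24, against 0.00 over all 18498 genes measured. Of the 49, 39 were lower, 8 higher and 2 at 0.00, and 52.4% of all genes measured were lower. At least 1.5-fold lower were 6 of them (Cycs, Cyc1, Cox7a1, Uqcrc2, Sdhc and Sdhd), where 1.52% of all genes were. The share was larger among bright genes. It was 5.48% (16) of the 292 genes at least as bright as the lower-quartile member, which themselves include members. Among genes other than the members it was 7.02% between 1000 and 3000 intensity units, where Cycs and Cyc1 lie. Between 3000 and 10000 units it was 5.36%. Of the 49, 0 were at least 1.5-fold higher, where 1.96% of all genes were. A 2-fold difference was reached by 1, Cycs, against 0.427% of all genes lower and 0.492% higher by that much.

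The size of these differences depends on how the arrays are put on 1 scale, and so does the order of many genes between the extremes. Over 7 settings that did not use the local background column, Cycs ranked first and Cyc1 second of the 49 in each. Cox6a2, Cox7a2l and Atp5g2 kept ranks within 46 to 49. Others moved, such as Atp5pb from 8 to 21, Cox4i2 from 21 to 39 and, near background, Uqcrq from 3 to 43. The authors' deposited values gave a median of -0.33, with 43 of the 49 lower (50.7% of all genes). On that scale 7 were lower by 1.5-fold or more (7.21% of all genes) and 0 higher by as much (9.21%). Cyclic loess, which fits the ratio against intensity, gave -0.38, with 43 lower (50.2%) and 10 at least 1.5-fold lower (1.61%). Scaling each array to its median gave -0.03 with 27 lower, where 54.5% of all genes were, a share close to that of the members. That scaling put the median of the 292 genes at least as bright as the lower-quartile member, which include most members, at 0.22, and the members lay 0.25 below it. The same distance was 0.24 in quantile-normalized values, 0.24 in deposited values and 0.21 with cyclic loess. Against the 147 genes at least as bright as the median member, it hardly changed in quantile-normalized values and was clearly smaller on the other scales. The medians of these 147 genes, with the members' median in brackets, were 0.00 (-0.24) in quantile-normalized values and -0.22 (-0.33) in deposited values. They were -0.31 (-0.38) with cyclic loess and 0.09 (-0.03) with scaling to the median. The 147 include members. In quantile-normalized values 50.3% of them were lower and 6.12% at least 1.5-fold lower, against 79.6% and 12.2% of the members. In deposited values these shares were 70.1% and 10.2%, against 87.8% and 14.3%. With cyclic loess they were 77.6% and 19.7%, against 87.8% and 20.4%, so the shares past 1.5-fold were close there. The members' signals were bright, at the 99.2th percentile of all genes at the median, in a range that quantile normalization, which gives both arrays the same set of values, centers near 0, although single genes there can still differ. Of the 11 members above 10000 intensity units, 7 were lower with a median of -0.06. The deposited values gave 11 lower and -0.27, against -0.33 for the 49 other genes in that range, so on the deposited scale the brightest members were not below other genes as bright. Between 3000 and 10000 units the median of 27 members was -0.37 against 0.03 for 224 other genes, and -0.39 against 0.04 in deposited values. Scaling to the median gave -0.08 against 0.34 there.

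Repeat spots give the only measure of error within an array. The array carries 2 positive control probes at 24 spots each. Their log2 SD was 0.16 and 0.17 on the control array and 0.11 and 0.09 on the depleted array, which makes 0.19 for a difference between single spots. Of the 49 genes, 15 were lower and 2 (Cox6a2 and Cox7a2l) higher by more than 2 such SD (0.39), and 18 lay within 1. Cox6a2 was inside the 0.39 limit in deposited values (0.28) and with cyclic loess (0.19). Cox7a2l stayed beyond it on both scales (0.45 and 0.40). Over all genes, 8.49% were beyond 2 SD in either direction and 4.1% were lower by that much. The positive control signals themselves were 1.74- and 2.12-fold brighter on the depleted array before scaling, and what these controls contain is not given in the sources used here. The 0.39 limit comes from the spread within each array and does not cover such differences between arrays.

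**Figure D1:**
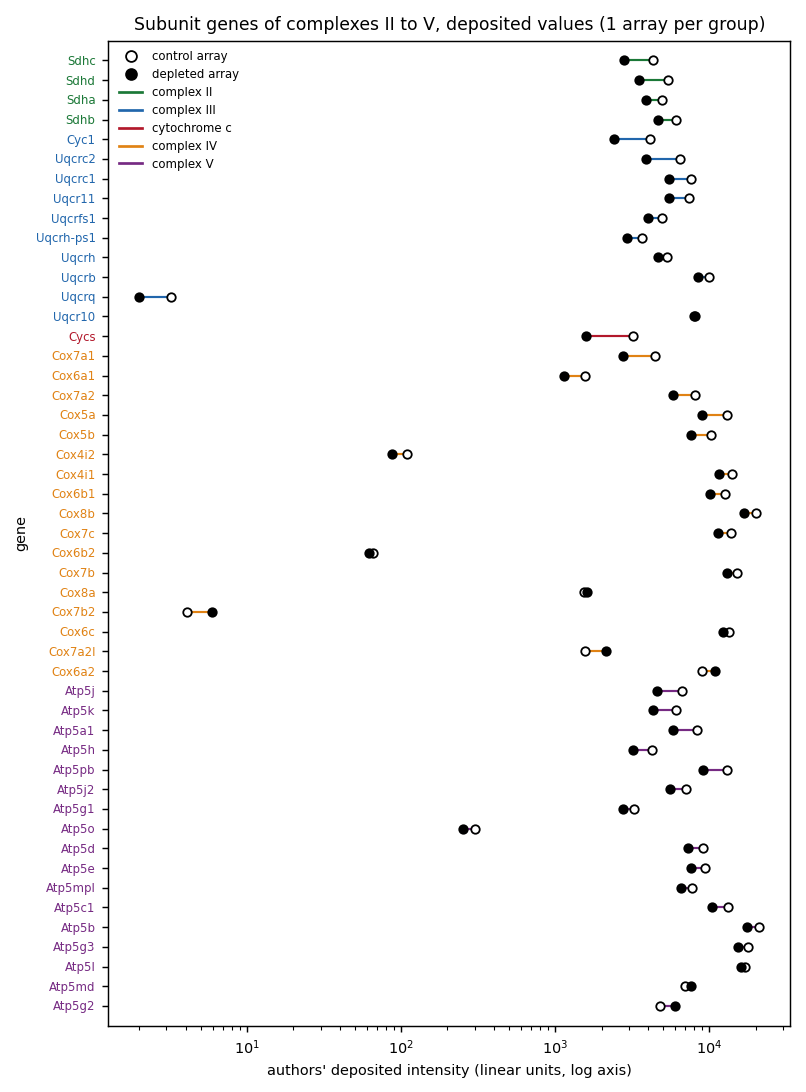
Authors' deposited intensity (log axis) of the 49 genes above background, 1 row per gene, with the control array as an open and the depleted array as a filled circle and the line coloured by complex. The filled circle lies left of the open circle for 43 genes, with the widest gap at Cycs (3202.9 to 1589.2), and right of it for 6, including Cox6a2, Cox7a2l, Atp5md and Atp5g2.

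The promoters of 5 genes from the ends of this range are shown to set the start regions of 3 low members (Cycs, Cox7a1, Sdhd) beside those of high ones (Atp5g2, Cox7a2l), among members with a promoter in the RefSeq table. Cyc1, Uqcrc2, Sdhc and Cox6a2 have no entry there. Each runs 5′ to 3′ from 250 bases before to 50 after the start, build GRCm38.p6. Capitals mark matches on either strand to 6 short motifs: GCATGCG (core of the NRF1 site), CCGGAAG (ETS factors such as GABP), AAGGTCA (nuclear receptors such as ERR), AAGATGG (YY1), CCAAT and GGGCGG (SP1). Matches may overlap one another.

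Cycs (chr6:50566520-50566819, minus strand): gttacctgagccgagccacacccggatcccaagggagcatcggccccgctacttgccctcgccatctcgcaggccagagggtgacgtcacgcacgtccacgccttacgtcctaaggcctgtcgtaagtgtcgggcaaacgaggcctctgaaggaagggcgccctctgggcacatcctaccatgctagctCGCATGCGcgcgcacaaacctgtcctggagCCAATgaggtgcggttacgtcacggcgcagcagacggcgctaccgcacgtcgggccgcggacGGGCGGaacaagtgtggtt
Sdhd (chr9:50603800-50604099, minus strand): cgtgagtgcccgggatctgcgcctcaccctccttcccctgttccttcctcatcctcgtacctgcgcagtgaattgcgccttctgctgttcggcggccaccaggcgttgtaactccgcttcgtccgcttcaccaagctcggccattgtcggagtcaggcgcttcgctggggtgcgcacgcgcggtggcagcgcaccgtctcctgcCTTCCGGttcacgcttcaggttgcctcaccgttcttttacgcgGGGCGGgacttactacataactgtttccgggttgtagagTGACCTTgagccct
Cox7a1 (chr7:30183921-30184220, plus strand): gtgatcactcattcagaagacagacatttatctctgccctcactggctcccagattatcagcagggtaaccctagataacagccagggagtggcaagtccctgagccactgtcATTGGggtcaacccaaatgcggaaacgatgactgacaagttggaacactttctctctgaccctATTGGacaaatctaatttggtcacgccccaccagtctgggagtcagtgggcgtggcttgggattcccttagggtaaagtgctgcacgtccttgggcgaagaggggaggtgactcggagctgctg
Atp5g2 (chr15:102670998-102671297, minus strand): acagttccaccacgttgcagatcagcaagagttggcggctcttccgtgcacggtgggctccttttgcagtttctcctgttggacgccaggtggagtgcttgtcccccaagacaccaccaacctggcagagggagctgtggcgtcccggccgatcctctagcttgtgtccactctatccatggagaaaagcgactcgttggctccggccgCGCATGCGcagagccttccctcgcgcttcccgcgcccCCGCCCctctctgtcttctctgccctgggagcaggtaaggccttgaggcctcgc
Cox7a2l (chr17:83514284-83514583, minus strand): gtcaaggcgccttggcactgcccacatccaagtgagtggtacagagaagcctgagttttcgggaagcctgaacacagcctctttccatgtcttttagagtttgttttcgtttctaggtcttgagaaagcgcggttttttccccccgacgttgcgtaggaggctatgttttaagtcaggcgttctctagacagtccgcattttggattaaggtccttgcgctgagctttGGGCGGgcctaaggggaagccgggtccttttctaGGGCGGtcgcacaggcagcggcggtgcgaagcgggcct

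The NRF1 core stood in the promoter of Cycs, the lowest member, and in that of Atp5g2, among the highest. The Cox7a1 promoter held only CCAAT matches, and that of Cox7a2l only SP1 matches. Sdhd carried an ETS, an ERR and an SP1 match. The RefSeq table held 40 promoters of 37 member genes. The NRF1 core was in 9 of the 40 (22.5%, against 3.58% of all 32851 promoters in the table), and the ETS motif in 13 (32.5%, against 8.86%). The ERR motif was in 5 (12.5%, against 4.72%), YY1 in 4 (10%, against 6.34%), CCAAT in 22 (55%, against 37.4%) and SP1 in 15 (37.5%, against 35.7%). A match describes the letters in this window, not a bound site.

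Complex II was lower in 4 of 4 genes, with a median of -0.52. Sdhc and Sdhd, which anchor the complex in the membrane and bind ubiquinone, had the larger differences. The spot median of Sdhc was 3407.8 on the control and 3016.4 on the depleted array, with deposited values of 4290.4 and 2796.3, a log2 ratio of -0.65. Sdhd was at 4258.3 and 3770.8, deposited 5372.8 and 3504.4, also -0.65. Both were lower even before scaling, although the depleted array was brighter as a whole. The catalytic subunits, the flavoprotein Sdha and the iron-sulfur protein Sdhb, were at -0.39 and -0.38. Sdha had spot medians of 3936.8 and 4165.4 and deposited values of 4963.6 and 3874.7, and Sdhb had 4841.8 and 5014.5, deposited 6115.3 and 4671.6. The catalytic pair was thus brighter on the depleted array before scaling and dimmer after it. With scaling to the median the 4 genes stayed below 0, at -0.05 (Sdha), -0.08 (Sdhb), -0.30 (Sdhc) and -0.30 (Sdhd).

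Complex III was lower in 9 of 10 genes, with a median of -0.35, and its members differed widely. Cyc1, the cytochrome c1 that delivers electrons to cytochrome c, was lowest, with spot medians of 3265.4 in control and 2593.6 in depleted muscle and deposited values of 4109.2 and 2399.5 (-0.84). Uqcrc2, a core protein of the matrix arm, was measured by 2 spots. The brighter went from 5119.2 to 4200.3 (deposited 6468.3 and 3907.4, -0.72), and the dimmer from 148.7 to 129.8 (deposited 143.1 and 87.1, -0.49). Both spots were lower, by 1.65- and 1.64-fold in deposited values. Its partner core protein Uqcrc1 was at -0.45, with deposited values of 7638.4 and 5438.1.

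The other complex III genes lay closer to 0. The Rieske iron-sulfur protein Uqcrfs1 was at -0.35, the small subunit Uqcr11 at -0.39, Uqcrh at -0.21 and its pseudogene Uqcrh-ps1 at -0.35. Without the pseudogene the median of complex III was -0.35. Uqcrb, which lies near the ubiquinone site, was at -0.10 (deposited 9941.8 and 8510.2). Uqcr10 had spot medians of 6365.5 and 8526.0 and was the 1 member above 0, at 0.06, but deposited values of 8054.3 and 7967.3 put it at -0.02. Uqcrq was barely above background at 38.8 and 39.1, so its ratio (-0.03, or -0.68 from deposited values of 3.2 and 2.0) rests on signals near the blank spots. Scaling to the median put 6 of the 10 below 0 and left Cyc1 (-0.46) and Uqcrc2 (-0.41) lowest.

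Cycs, the mobile carrier between complexes III and IV and a trigger of apoptosis once released, was the lowest of all members. Its spot median was 2553.1 on the control and 1730.3 on the depleted array. Deposited values were 3202.9 and 1589.2. The log2 ratio was -1.04 and ran from -1.07 to -0.68 over 7 settings that did not use the local background column, ranking first among the 49 in each. Cyc1 ranked second in each of the 7.

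Complex IV had a median of -0.06 over 17 measured genes, 13 of them lower, and the widest range of the 4 complexes, from -0.73 to 0.45. Its median was -0.28 in deposited values and -0.37 with cyclic loess. On those scales complex III was at -0.37 and -0.37, and complex V at -0.29 and -0.38. How far complex IV stood from complexes III and V thus depended on the scale. Nuclear complex IV subunits surround a catalytic core that mitochondrial DNA encodes. Cox5a and Cox5b, which face the matrix, were at -0.37 and -0.32, with deposited values of 13039.2 and 8987.1 for Cox5a and 10207.1 and 7632.6 for Cox5b. Cox4i1, Cox6b1, Cox7b, Cox7c and Cox8b lay between -0.07 and -0.04. All 5 were among the brightest signals, and cyclic loess put them between -0.42 and -0.31 and deposited values between -0.33 and -0.21. Scaling to the median put 4 of these 5 just above 0. Cox6c was at 0.09, but at -0.14 in deposited values.

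Several complex IV subunits have paralogues, which offer a comparison between 2 spots on the same arrays. The ratios of Cox6a1 and Cox6a2 lay on opposite sides of 0. Cox6a1, the form of most tissues, had spot medians of 1265.0 and 1250.7 (deposited 1563.6 and 1139.1, -0.48). Cox6a2, the heart and muscle form, had 7102.0 and 11659.0 (deposited 8991.5 and 10907.8, 0.45). On the deposited scale Cox6a2 was thus brighter and Cox6a1 dimmer in depleted muscle. The difference between the log2 ratios was 0.93 and lay between 0.66 and 0.96 over the 7 settings.

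The Cox7a family did not follow the same split between muscle and general forms. Cox7a1, the muscle form, was at 3550.5 and 2975.3 (deposited 4472.0 and 2757.8, -0.73). Cox7a2, the form of most tissues, was at 6357.3 and 6201.0 (deposited 8043.8 and 5785.2, -0.43). Cox7a2l, a relative that joins complexes III and IV into supercomplexes, was at 1268.1 and 2322.9 (deposited 1567.6 and 2145.5, 0.40). Cox7a2l exceeded Cox7a1 by 1.13 in log2 ratio, and by 1.12 to 1.16 over the 7 settings, the least dependent on scaling of the 11 differences between paralogues examined. Cox7a2 exceeded Cox7a1 by 0.30, within 0.39, the 2 SD of a single ratio between repeat spots. A difference between 2 ratios rests on more spots and has a larger error.

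The remaining paralogues of complex IV did not separate beyond that 2 SD of a single ratio in quantile-normalized values. Cox8a, the general form, was at -0.02 (deposited 1546.6 and 1597.2) and the muscle form Cox8b at -0.06 (deposited 20079.3 and 16717.3). The hypoxia-linked Cox4i2 was dim, with spot medians of 122.0 and 130.4 and a ratio of -0.21, against -0.07 for Cox4i1. Cox6b2 and Cox7b2 are known from testis. The brightest of 3 spots of Cox6b2, at 87.6 and 102.6, gave -0.05, and the others, nearer background, gave 0.00 and 0.05. Cox7b2 was close to background, at 0.04 with spot medians of 39.4 and 43.3. It was at 0.53 in deposited values of 4.1 and 5.9, again close to the blank spots.

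Complex V had a median of -0.24, with 12 of 17 genes lower, 3 higher and 2 at 0.00. In the catalytic head, the alpha subunit Atp5a1 was at -0.46 (spot medians 6594.6 and 6239.7, deposited 8345.9 and 5821.5). The beta subunit Atp5b, which holds the catalytic sites, was at 16649.5 and 18764.9 (deposited 21141.2 and 17576.9). It was at 0.00 after quantile normalization and at -0.27 in deposited values. The other head and central stalk subunits, Atp5c1, Atp5d and Atp5e, were at -0.12, -0.24 and -0.21.

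The peripheral stalk, which holds the head still against the rotor, had the lowest member of the complex. Atp5j was at 5293.5 and 4940.8 (deposited 6690.1 and 4602.4, -0.54). Atp5h was at -0.44, Atp5pb at -0.33 (deposited 13078.7 and 9127.6) and the dimmer Atp5o at -0.24 (deposited 303.7 and 251.5). Among small membrane subunits, Atp5k, which takes part in dimer formation, was at -0.53 (deposited 6110.6 and 4298.8), Atp5j2 at -0.31 and Atp5mpl at -0.17. Atp5l was at 0.13 but at -0.07 in deposited values. Atp5md was at 0.15, with spot medians of 5493.4 and 8091.8 and deposited values of 6944.5 and 7559.7, and stayed above 0 in the 7 settings. Scaling to the median put the complex V median at 0.02 and that of complex IV at 0.03.

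The c-ring of the rotor is built from 1 mature protein that 3 genes encode. Atp5g1 was at 2587.1 and 2962.8 (deposited 3246.1 and 2746.0, -0.29), Atp5g3 at 13947.3 and 16433.4 (deposited 17702.5 and 15388.7, 0.00) and Atp5g2 at 3777.2 and 6463.2 (deposited 4760.5 and 6031.3, 0.34). Atp5g2 alone of the 3 was brighter on the depleted array in deposited values. It exceeded Atp5g1 by 0.62 in log2 ratio (0.56 to 0.63 over the 7 settings) and Atp5g3 by 0.34 (0.34 to 0.57).

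**Figure D2:**
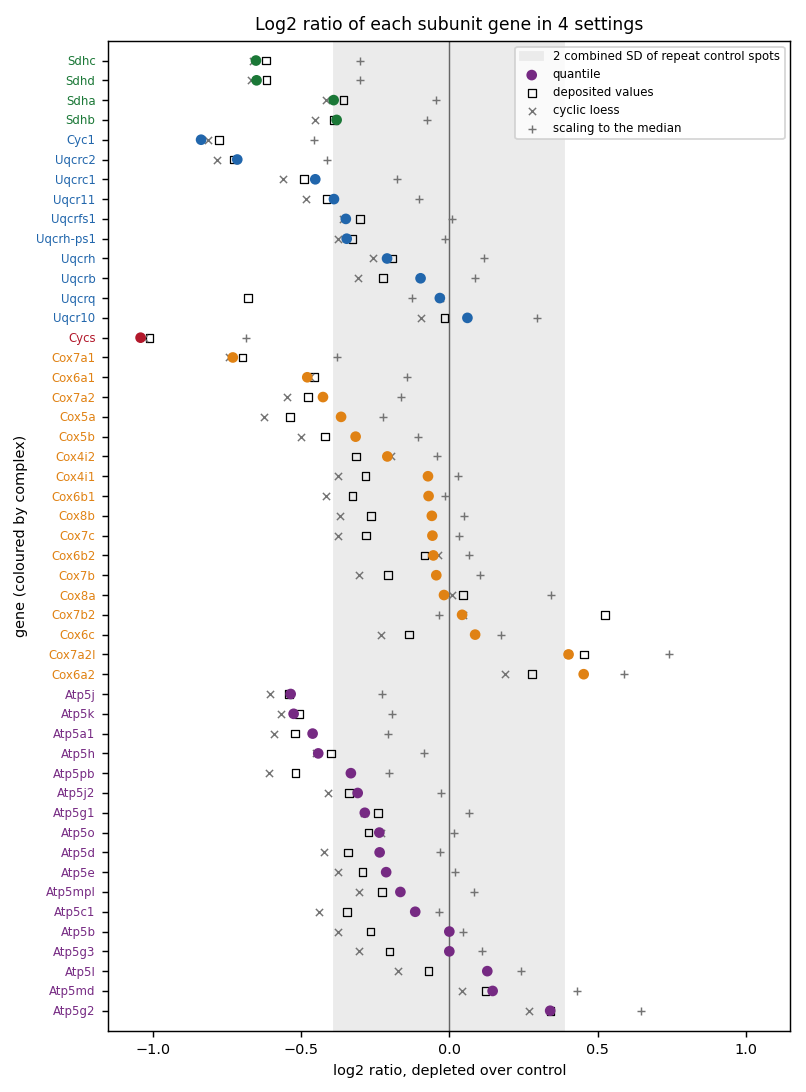
Log2 ratio of the 49 genes, depleted over control, in quantile-normalized values (coloured by complex), deposited values (squares), cyclic loess (crosses) and scaling to the median (plus signs), with 2 combined SD of repeat control spots in grey. Cycs and Cyc1 lie furthest left in quantile-normalized values, Cox6a2, Cox7a2l and Atp5g2 lie right of 0 in all 4, and scaling to the median moves Uqcrh, Uqcrb, Cox4i1, Atp5e and others across 0.

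Across the 7 settings 26 members were below 0 in every one, 4 were above 0 in every one (Cox6a2, Cox7a2l, Atp5g2 and Atp5md), and 19 did not keep 1 sign. Leaving out scaling to the median, 38 were below 0 and 5 above it in the 6 others. The same counts over all genes were not made. Several of the settings share the quantile step and give bright genes nearly the same ratio, so agreement among them is partly built in. Complex II kept its 4 genes below 0 throughout. Complexes III, IV and V each held genes that changed sign, and the medians of complexes IV and V were above 0 with scaling to the median.

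**Figure D3:**
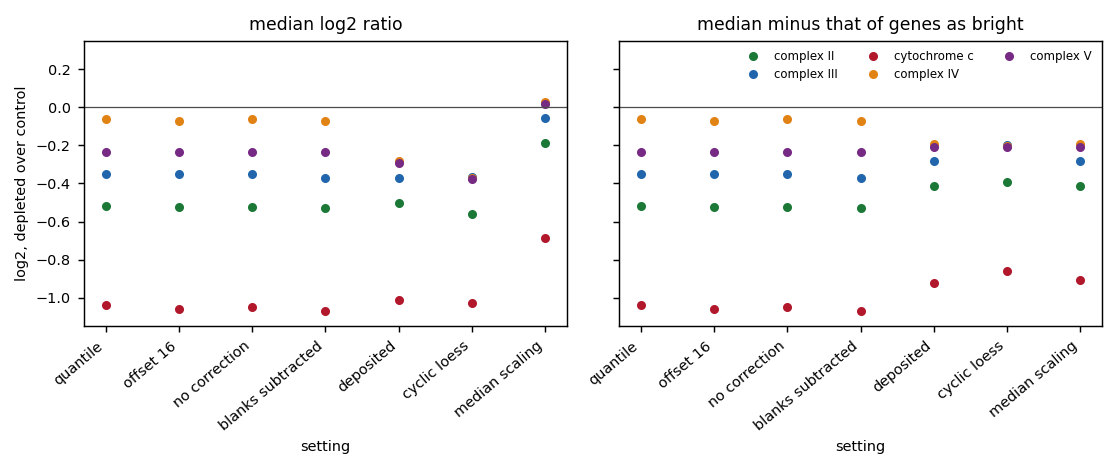
Median log2 ratio, depleted over control, of complexes II, III, IV and V and the ratio of Cycs in 7 settings (left), and the same minus the median of the 292 genes at least as bright as the lower-quartile member (right). Cycs is lowest and complex II next in every setting, complexes IV and V lie just above 0 with scaling to the median (0.03 and 0.02), and all points lie below 0 on the right. Distances to the 147 genes at least as bright as the median member are not drawn.

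**Figure D4:**
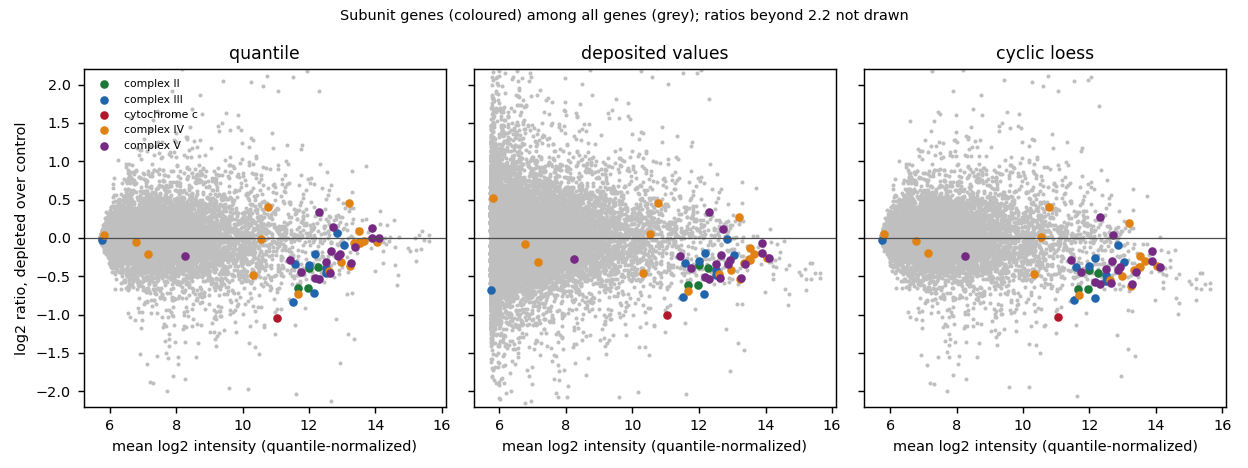
Log2 ratio, depleted over control, against mean log2 intensity for all genes (grey) and the members (coloured by complex) in quantile-normalized values, deposited values and cyclic loess. Most members sit at the bright end below 0, and at the far right the grey genes center on 0 with quantile normalization and below 0 in the other panels, where the 49 other genes above 10000 units have medians of -0.33 (deposited) and -0.44 (cyclic loess).

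Other mitochondrial genes were compared by lists. Of 35 complex I subunits measured 32 were lower, 3 of them at least 1.5-fold, with a median of -0.39, from Ndufs1, a core subunit, at -0.73 to Ndufb2 at 0.22. Citrate cycle enzymes other than complex II were lower in 11 of 12, median -0.37, with Sucla2, a subunit of succinate-CoA ligase, at -0.51 and Idh3g, of isocitrate dehydrogenase, at 0.06. Genes of ATP export were lower in 6 of 7, median -0.24. In that list Ckmt2, the mitochondrial creatine kinase of muscle, was at -0.73 (deposited 13660.9 and 7538.5), and Slc25a3, the phosphate carrier, was at 0.00.

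Assembly factors of complexes II to V were lower in 22 of 33, with a median of -0.13. Of these, 1 was at least 1.5-fold lower: Uqcc1, needed to assemble complex III, at -0.92 (deposited 477.2 and 228.3). Coa4, a complex IV factor, was highest at 0.47. Mitochondrial ribosomal proteins were lower in 52 of 78, median -0.10, from Mrpl48 at -0.90 to Mrps30 at 0.40. Cytosolic ribosomal proteins were lower in 16 of 66, with a median of 0.12, from Rpl3l, a striated muscle form, at -0.48 to Rps27 at 0.88. Scaling to the median gave -0.06 for complex I, -0.10 for the citrate cycle, 0.01 for ATP export, 0.06 for the assembly factors, 0.12 for mitochondrial and 0.36 for cytosolic ribosomal proteins. No genes encoded in mitochondrial DNA were analysed here.

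Regulators of mitochondrial biogenesis were split, with 9 of 16 lower, 4 of them at least 1.5-fold, and a median of -0.13. Ppargc1a, the coactivator PGC-1alpha that drives transcription of respiratory chain genes, was at -0.96, with spot medians of 371.8 and 247.2 and deposited values of 427.0 and 197.3. The related coactivator Ppargc1b was at -0.69 (deposited 197.6 and 102.2), the nuclear receptor Esrrg at -0.78 (deposited 1635.7 and 978.9) and Tfam, which packages and transcribes mitochondrial DNA, at -0.76 (deposited 538.0 and 300.5). Esrra was at -0.47. Nrf1, the factor named for its sites in respiratory chain promoters, was highest at 0.35 (deposited 61.9 and 94.8). With scaling to the median 1 regulator, Ppargc1a, was at least 1.5-fold lower. Whether these regulators bear on the subunit genes was not tested.

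**Figure D5:**
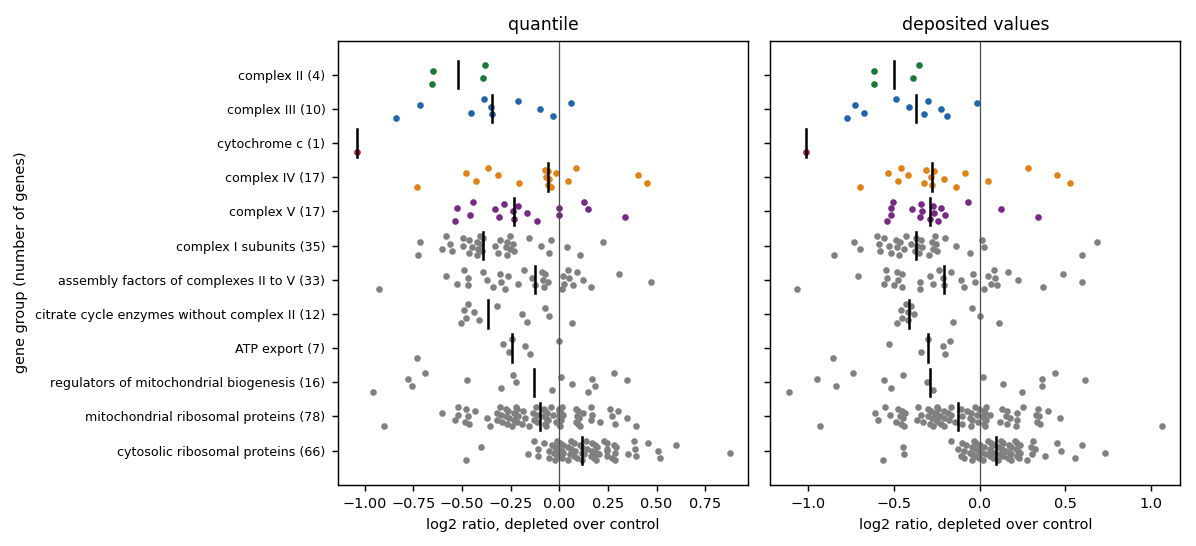
Log2 ratio of each gene, depleted over control, for complexes II to V and cytochrome c (coloured) and for 7 related gene lists (grey), with the median as a black line, in quantile-normalized values (left) and deposited values (right). The medians of complexes II and III, complex I and the citrate cycle lie between -0.52 and -0.35 on the left, and cytosolic ribosomal proteins have a median above 0 in both panels (0.12 and 0.10).

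Markers of muscle and of other cells were read on the same arrays, and their part in the values above was not tested. The tissue matched its label: Ckm, Acta1 and Mb, which define striated muscle, had spot medians of 37192.0, 51523.0 and 27833.0 in control and 38087.0, 48426.0 and 23782.6 in depleted muscle. In deposited values their ratios were -0.41, -0.53 and -0.67. The 15 skeletal muscle markers had a median of -0.05, from Pvalb at -1.25 to Tnni2 at 0.10. Their median was -0.41 in deposited values, with 14 of 15 lower, -0.53 with cyclic loess and -0.09 with scaling to the median, each below the members' median on that scale. The heart markers Myh6 and Nppa were near background on both arrays. Fast fibre markers were lower in 7 of 10, median -0.12 (-0.47 in deposited values), with Casq1 at -2.03 and Tnni2 at 0.10. Slow fibre markers, from more oxidative fibres, were lower in 4 of 9, median 0.10, with Myoz2 at 0.78 and Myh7 at -0.51. The summed deposited values went from 349530 to 246770 for fast and from 26556 to 31119 for slow markers.

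Among non-muscle cells, progenitor markers were lower in 14 of 14 (median -1.02), with Pdgfra at -0.94 (deposited 273.1 and 116.6), Lum at -1.84 and Dpp4 at -0.02, and their summed deposited values went from 24923 to 12257. Macrophage markers were higher in 10 of 10 (median 0.58, summed 3275 to 7125), from Csf1r at 0.00 to Lyz2 at 1.22. Endothelial markers were higher in 7 of 8 (median 0.09, summed 542 to 765), from Vwf at -0.01 to Cldn5 at 0.83. White adipocyte markers were higher in 4 of 6 (median 0.04, summed 5703 to 5979), from Cidec at -0.32 to Adipoq at 0.28. Of the brown adipocyte markers, which include the member Cox8b, 3 of 5 were lower (median -0.06, summed 20569 to 16994), from Ppargc1a to Cidea at 0.29, and the defining gene Ucp1 was dim at 50.9 and 50.8. Heart markers were lower in 5 of 7 (median -0.04, summed 450 to 356), from Myl4 at -0.45 to Tnnt2 at 0.01. Erythroid markers were lower in 6 of 6 (median -1.38, summed 32293 to 6178), from Hbb-bt at -3.30 to Slc4a1 at -0.11.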

How the data were processed

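Total RNA of 2 muscles was amplified, coupled to Cy5 and hybridised to 1 array each, per the labels' protocols. The deposited scanner intensity is the median of each spot at 635 nm, joined from 3 scan gains without background subtraction, per the file headers. The authors also deposited processed intensity values. These are a straight line of the scanner values on each array, with slopes of 1.27 (control) and 0.939 (depleted) after 36.3 and 37.0 units are taken off. Genome build, scanner and software: not given in the sources used here.

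Spot medians were corrected by normexp with an offset of 50 (limma 3.58.1, R 4.3.3), set on a log2 scale, averaged per probe and quantile-normalized. A spot was above background beyond the blank spots' mean plus 2 SD (37.4 and 38.5 units). A gene took its brightest probe. Gene symbols came from the platform annotation, and 50 of 50 members matched RefSeq by Entrez gene with 0 changed. Counts used a 1.5-fold and a 2-fold limit. Named were, per complex, the brightest, 3 lowest and 2 highest members, all past 1.5-fold, paralogues, genes whose spots disagreed in sign, and the ends of each list. Others are given for completeness. Members and lists were chosen with earlier results of these data known. The steps were tested on simulated data. Tables and plots used Python 3.11.15, numpy 2.4.6, pandas 2.3.3 and matplotlib 3.10.9.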

Additional observations from a re-analysis of the deposited data

How the results depend on the processing

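No paired analysis was possible because there was 1 array on each side. The median of complex II was -1.31 with the local background column subtracted. The other medians of complexes and of all members moved by less than 1.5-fold in every setting. That limit is wider than these medians themselves, so a shift to 0 would not pass it. With scaling to the median, all members were at -0.03, complex IV at 0.03 and complex V at 0.02. The count of members at least 1.5-fold lower, 6, was 10 with cyclic loess, 1 with scaling to the median, 21 with the local background subtracted, 20 at a lower and 1 at a 2-fold limit. The count at least 1.5-fold higher, 0, was 3 with scaling to the median, 10 with the local background subtracted and 3 at the lower limit. Of all genes, 0.676% were at least 1.5-fold lower and 4.84% higher with scaling to the median, and 19.6% lower and 21.5% higher with the local background subtracted. The members higher in these settings (6.12% and 20.4%) are near those shares. For the limit below 1.5-fold, the share of all genes was not counted. The 20 lower and 3 higher members there thus cannot be compared with other genes. The changed limits act by construction, and for the other settings the cause was not tested. With scaling to the median, genes other than the members had medians of -0.06 below 100 units and 0.21 from 100 to 1000. From 1000 to 3000 and from 3000 to 10000 units both were 0.34, and above that -0.02. In deposited values these 5 medians were -0.03, 0.01, 0.05, 0.04 and -0.33. A ratio of 0 with scaling to the median thus lay below the median of other genes between 100 and 10000 units. With the local background subtracted, Cox7a1 (1.42) and Sdhd (0.52) reversed, as did Cox7a2l against Cox7a1 (-1.52) and Atp5g2 against Atp5g1 (-0.14). Atp5g2 (-1.065) and Cox7a2l (-0.10) themselves fell below 0 there, while Cox6a2 (0.685) and Atp5md (2.68) stayed above it. Cycs was at -9.015, with a local background above its spot on the depleted array. That column held 46.7% of the spot's own value at the median member in control and 64.4% in depleted muscle, and exceeded the spot on an array for 3 members. Of 288 values of named members in the 9 other settings, 276 kept their side of the 1.5-fold limit. Of the rest, 5 fell inside it, all with scaling to the median, 7 passed it and 0 reversed. Part of this is built in: the 49 members were above background on both arrays, so changing the filter on dim genes could move none. Averaging a gene's probes could move only genes with several spots. Signal over background limits Uqcrq, Cox7b2 and the dimmer spots of Cox6b2, and spots at the bright end are limited by the scaling.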
